A study of Mus musculus with 8 samples.

Results

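The 9 genes described here carry the LIF-STAT3 signal in mouse embryonic stem cells (ESCs): the receptor chains Lifr and Il6st, the kinase Jak1, the transcription factor Stat3, the feedback inhibitor Socs3, and the targets Gbx2, Pim1, Pim3, and Bcl3. They were chosen by name for their place in the pathway, with earlier results of these data known, and are 9 of the 37263 genes in the count tables. RNA-seq was made from E14 ESCs (strain 129/Ola, grown without feeders) that had left serum medium for 2i 4, 16, 24, or 32 hr earlier. 2i is the serum-free medium NDiff 227 with the MEK inhibitor PD0325901 and the GSK3 inhibitor CHIR99021, and it was used either alone or with 17 µM vitamin C (vitC). Every pairing of a time with a treatment gave 1 library (8 in all), no serum library was analysed here, and the labels name no replicate cultures. LIF was present in the serum medium and in 2i, so that all 8 libraries came from cells kept in LIF.

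LIF is a cytokine that binds LIFR, which then pairs with gp130, the product of Il6st. JAK kinases bound to the receptor tails phosphorylate STAT3, which enters the nucleus and switches on a set of target genes, among them Socs3, whose product blocks the same receptor complex. In mouse ESCs this pathway sustains self-renewal, and several of its targets can hold cells in the undifferentiated state when they are overexpressed.

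Library totals ranged from 4753528 to 18434932 counts, with the lowest values for vitC at 24 hr and 16 hr. Values are given as CPM (counts scaled to a common library total, with TMM factors), and their intervals are 95% Wilson intervals that cover counting error only. Lane 8 of the sequencer held the libraries of 4 hr and 24 hr, and lane 7 held those of 16 hr and 32 hr. Thus 24 hr against 4 hr and 32 hr against 16 hr were compared within a lane, whereas time and lane cannot be told apart when 16 hr or 32 hr is set against 4 hr. Lars2 and 2 other features with which it varies took 0.0113% and 0.0277% of the counts in the 4 hr libraries and between 0.206% and 7.11% in the later ones. As a sum, 10 markers of ESCs were plentiful in every library (summed CPM from 1951 to 2294), with Pou5f1 at 280.1 CPM or more. Of the 10, Sox2 and Esrrb rose at 24 hr against 4 hr (log2 changes 1.03 and 0.60, edgeR adjusted p = 8.02e-04 and 0.0182). Pou5f1 and Utf1 fell (-0.68 and -3.11, 0.00466 and 1.25e-04), and Utf1 stood at 1.72 CPM in its lowest library. Over all genes 11.5% rose and 8.98% fell. At 32 hr 3 of the 10 rose and 3 fell, where 13.5% of all genes rose and 11.8% fell. Summed fibroblast markers, 10 genes mostly made up by Col1a1 and Col1a2, stood at 139.7 and 121.6 CPM at 4 hr and between 296.8 and 715.4 CPM later. Of the 9 fibroblast markers tested, 3, 4, and 5 rose at 16, 24, and 32 hr against 4 hr, where 9.16%, 11.5%, and 13.5% of all genes rose. The log2 changes at 24 hr were 2.35 for Col1a1, 2.25 for Col1a2, 3.08 for Postn, and 0.79 for Pdgfrb (edgeR adjusted p = 2e-04, 2.15e-05, 0.00169, and 0.0246). Thy1 alone fell, at 32 hr (-1.80, 0.0157), where 11.8% of all genes fell. Col3a1 and Col6a1 passed at no time (0.10 and 0.28 at 24 hr, 0.887 and 0.529). Lum and Dcn of the same list stayed at no more than 4 and 36 counts. Summed primitive endoderm markers ranged from 66.76 to 155.5 CPM, and Sox7 and Foxa2 had no more than 8 and 11 counts. Of the 6 primitive endoderm markers tested, 0, 3, and 4 rose at 16, 24, and 32 hr, beside 9.16%, 11.5%, and 13.5% of all genes. At 24 hr Lama1 rose by 0.52, Pdgfra by 1.24, and Dab2 by 1.25 (edgeR adjusted p = 0.0182, 0.0271, and 0.00951). The part of these markers in the changes with time was not tested. In bulk RNA, fewer cells expressing a gene and less RNA per cell cannot be told apart.

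All 9 genes were detected in every library, with between 69 and 2260 counts each, and all passed the filter of at least 1 CPM in at least 2 libraries, as did 14931 genes in total. Per length of their merged exons (RPKM, CPM per kilobase), Pim3 and Socs3 stood highest, with means of 37.3 ± 9.26 and 36.2 ± 8.35 (SD over the 8 libraries, which differ in time and treatment). Gbx2 (21.5 ± 5.60), Pim1 (14.9 ± 6.84), Jak1 (13.3 ± 1.88), Stat3 (11.7 ± 0.814), Il6st (9.32 ± 1.54), Bcl3 (8.45 ± 5.56), and Lifr (8.37 ± 1.55) followed in this order of mean RPKM. Socs3 was above Gbx2 and Stat3 was above Il6st in 8 of 8 libraries. In contrast, Pim3 was above Socs3 in 5, Gbx2 above Pim1 in 6, Pim1 above Jak1 in 4, Jak1 above Stat3 in 7, Il6st above Bcl3 in 5, and Bcl3 above Lifr in 3 of the 8 libraries, so that these neighbours in the order overlapped. The transducer Stat3 varied least, by 1.25-fold between its lowest and highest library, and the target Bcl3 varied most, by 8.17-fold. On the GENCODE M21 annotation, 43.5% of the exon length of Gbx2 lies opposite D130058E05Rik, which had 10 to 81 counts per library. For Pim1, 14.5% of the exon length lies opposite the antisense gene Gm26885, which is not in the count tables. The labels name no stranded protocol and the strand setting of the counting is not given, so reads of such pairs may not have been told apart in the shared stretch. The other 7 genes share 6.5% or less of their exon length with a gene on the opposite strand.

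**Figure D1:**
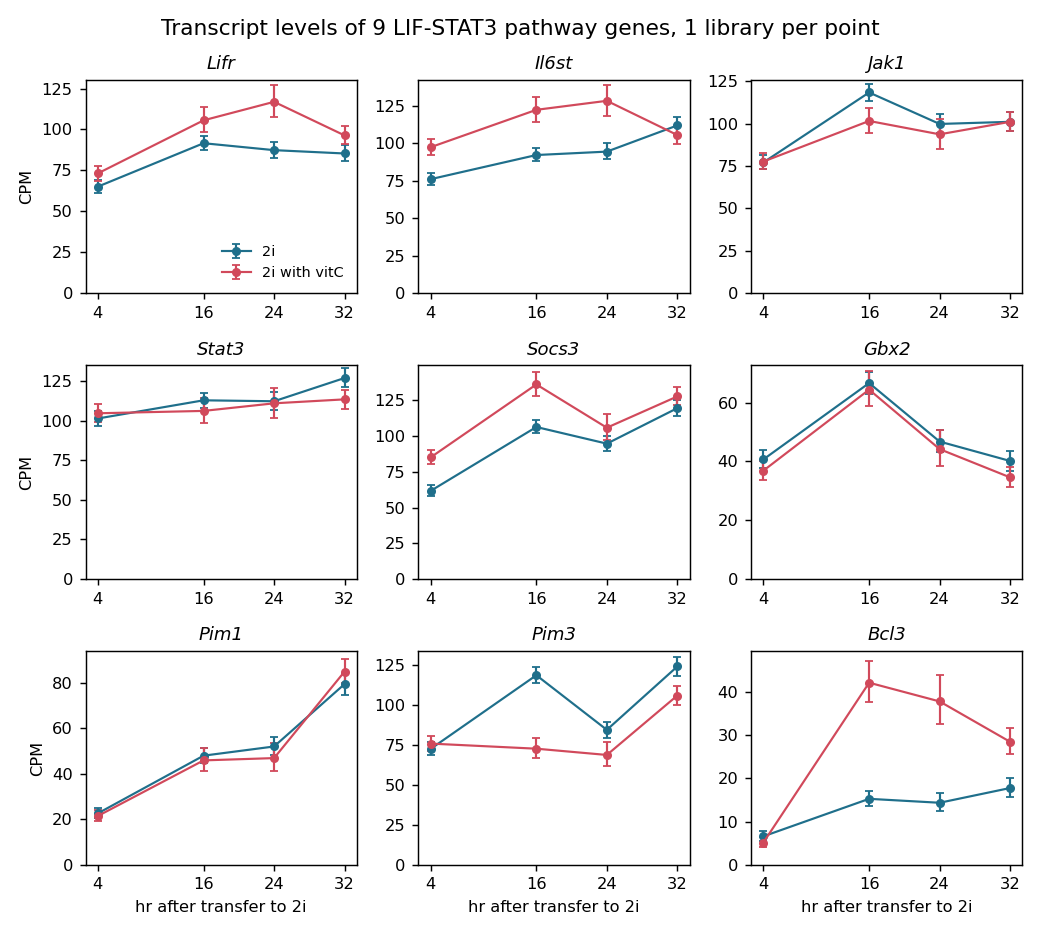
CPM of the 9 genes (vertical axis) by hr after transfer to 2i (horizontal axis), without vitC in blue and with vitC in red. Each point is 1 library, bars are 95% counting intervals, and each vertical axis starts at 0. Pim1 climbed alike in both treatments, Gbx2 was highest at 16 hr in both, and Bcl3 separated by treatment from 16 hr on.

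To ask how these genes changed as cells moved into 2i, edgeR's quasi-likelihood test was used with a model that adds a treatment effect to the 4 time points and takes in all 8 libraries. Changes are given on the log2 scale with Benjamini-Hochberg adjusted p-values over all genes tested. Its error reflects how far the time courses of 2i and vitC diverge, in the absence of replicate cultures. In this model 6 of the 9 genes rose between 4 hr and 16 hr (Lifr, Jak1, Socs3, Gbx2, Pim1, and Bcl3), where 9.16% of all genes tested rose. Between 4 hr and 24 hr, within a lane, 4 of the 9 rose (Lifr, Socs3, Pim1, and Bcl3), against 11.5% of all genes. By 32 hr 4 of the 9 had risen (Socs3, Pim1, Pim3, and Bcl3), against 13.5% of all genes. None of the 9 fell against 4 hr. The 9 genes had median log2 changes of 0.51, 0.35, and 0.39 at 16, 24, and 32 hr, beside 0.006, 0.0076, and 0.0048 over all genes. In a test of any change over the 4 time points, 6 of the 9 passed (Lifr, Socs3, Gbx2, Pim1, Pim3, and Bcl3), against 20.8% of all genes. For 6 of the 9 genes (Lifr, Jak1, Stat3, Socs3, Pim1, and Bcl3) both 4 hr libraries were below all 6 later libraries, a pattern seen in 18.7% of all genes tested.

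The number of calls changed with single libraries and with 1 technical measure. At 16 hr 3 of the 9 rose without the 2i library at 4 hr and 3 without the vitC library at 4 hr, where 7.44% and 2.31% of all genes rose in the same fits. At 24 hr 2 and 1 of the 9 rose without the vitC library at 4 hr or 24 hr, where 3.82% and 3.42% of all genes rose. At 32 hr 1 of the 9 rose without the 2i library at 32 hr, where 5.83% of all genes rose. When the log2 share of counts on the Lars2 features was added to the model, a setting chosen after seeing the data, 0 of the 9 genes passed by edgeR's adjusted p at 16 hr, 0 at 24 hr, and 1 (Pim1) at 32 hr, and over all genes 73, 0, and 158 passed. This share was lowest in both 4 hr libraries. The log2 changes of Lifr, Jak1, Socs3, Gbx2, and Pim1 from 4 hr to 16 hr in that fit were between 0.57 and 1.00, whereas that of Bcl3 was 1.02 in place of 2.05.

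**Figure D2:**
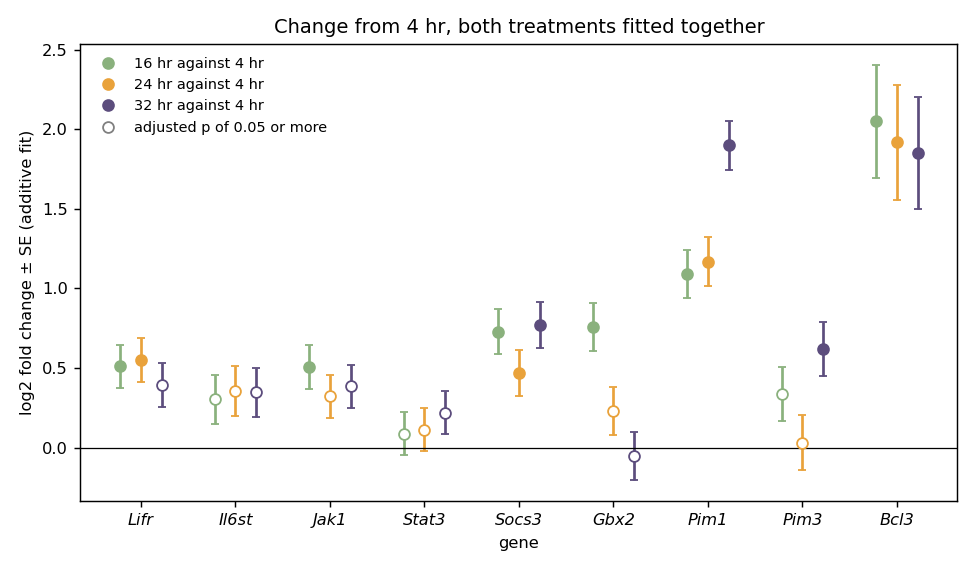
log2 fold change of each gene from 4 hr to 16, 24, and 32 hr (vertical axis), from the additive fit of both treatments; bars are standard errors, filled points passed an adjusted p of 0.05 and open points did not. Pim1 and Bcl3 lie highest, with Pim1 at 1.90 by 32 hr, and the 3 values of Stat3 lie between 0.09 and 0.22.

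Transcripts of both receptor chains were lowest at 4 hr within each treatment. Lifr, the LIF-specific chain, measured 65.1, 91.6, 87.4, and 85.4 CPM at 4, 16, 24, and 32 hr in 2i, and 73.2, 105.6, 116.9, and 96.4 CPM with vitC. The 4 hr libraries did not overlap with the later ones, and the value with vitC was the higher at each time. In the additive fit Lifr rose by 0.51 ± 0.14 (SE) at 16 hr (adjusted p = 0.0258) and by 0.55 ± 0.14 at 24 hr (0.0155), while at 32 hr its change of 0.39 ± 0.14 missed the threshold (0.0517). The 24 hr call was lost without the vitC library at 4 hr (0.49, adjusted p = 0.13) or at 24 hr (0.43, 0.201) and after a correction for GC content and length (0.35, 0.0712). A model without the treatment effect lost the 24 hr call too (0.56, edgeR adjusted p = 0.0578). At 16 hr the call was lost when any of the 4 libraries of that contrast was left out, with changes between 0.46 and 0.56 and adjusted p from 0.0656 to 0.158. Thinning to the smallest total (0.53, 0.0596), the GC and length correction (0.36, 0.0669), and a model without the treatment effect (0.51, 0.085) also lost the 16 hr call.

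Il6st encodes gp130, the signal-transducing chain shared by cytokines of the IL-6 family. It measured 76.0, 92.1, 94.4, and 111.8 CPM at 4, 16, 24, and 32 hr in 2i and 97.3, 122.2, 128.2, and 105.4 CPM with vitC. The 4 hr value with vitC exceeded the 16 hr and 24 hr values in 2i, so that the 4 hr and later libraries overlapped. Its log2 changes in the additive fit were 0.30 ± 0.16, 0.35 ± 0.16, and 0.35 ± 0.15 at 16, 24, and 32 hr (adjusted p = 0.20, 0.128, and 0.119), and none passed.

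Jak1 and Stat3 carry the signal from receptor to nucleus. Jak1, a tyrosine kinase bound to gp130, measured 77.2, 118.4, 99.8, and 101.1 CPM in 2i and 77.7, 101.6, 93.7, and 101.1 CPM with vitC. Both 4 hr libraries were the lowest, and the 2i library at 16 hr was the highest. Jak1 rose by 0.51 ± 0.14 at 16 hr (adjusted p = 0.0256), and its changes at 24 and 32 hr, 0.32 ± 0.14 and 0.39 ± 0.14, did not pass (0.116 and 0.0537). After all libraries were thinned to the smallest total the 16 hr change was 0.17 (0.566), and it also failed without the 2i library at 4 hr (0.45, 0.129) or 16 hr (0.41, 0.152) or the vitC library at 4 hr (0.56, 0.0964).

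Stat3 showed the flattest course of the 9 genes. It measured 101.5, 113.0, 112.4, and 127.1 CPM in 2i and 104.8, 106.3, 111.1, and 113.6 CPM with vitC. The 4 hr libraries were lowest in both series, yet the 4 hr and 16 hr values with vitC lay within each other's counting intervals. Its additive log2 changes were 0.09 ± 0.13, 0.11 ± 0.13, and 0.22 ± 0.13 (adjusted p = 0.688, 0.585, and 0.243), and after the correction for GC content and length those at 16 and 24 hr were -0.06 and -0.08. The data show transcript levels only and hold no measure of STAT3 phosphorylation.

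Socs3 encodes the inhibitor that binds gp130 and shuts the receptor off, and it is a direct STAT3 target in textbook accounts. It measured 61.7, 106.4, 94.8, and 119.6 CPM in 2i and 85.1, 136.2, 105.9, and 127.8 CPM with vitC. Both series rose from 4 hr to 16 hr, were lower at 24 hr, and were higher again at 32 hr, with the lane alternating between 8 and 7 at these times. The log2 change from 4 hr was 0.73 ± 0.14 at 16 hr (adjusted p = 0.0062), 0.47 ± 0.14 at 24 hr (0.0379), and 0.77 ± 0.14 at 32 hr (0.0024). The 24 hr call was lost when any library but the 16 hr ones was left out, with changes from 0.33 to 0.59. Scaling by library totals alone (0.44, edgeR adjusted p = 0.0565), thinning (0.47, 0.105), and a model without the treatment effect (0.45, 0.132) lost it too. Without the 2i library at 4 hr the 16 hr change was 0.60 (0.0521), and without that at 32 hr the 32 hr change was 0.65 (0.054).

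A search of the promoter windows that RefSeq gives for the 9 genes, from 250 bases before to 50 after each start on GRCm38.p6, used the STAT motif TTCNNNGAA, which reads the same on both strands and was searched alone. All 9 genes matched, with 11 windows, and the motif was found in 1 of them, that of Socs3, 154 bases before the start. Of the 32851 windows of all genes, 8.30% held it. The stretch of Socs3 around it is shown because it is the only match among these genes, with the motif in capitals, and lies at chr11:117969456-117969575 on the minus strand:
Socs3: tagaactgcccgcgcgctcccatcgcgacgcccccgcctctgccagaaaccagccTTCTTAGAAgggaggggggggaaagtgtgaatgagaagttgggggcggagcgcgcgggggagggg
GENCODE M21 gives other Socs3 starts on either side of the RefSeq one, so the distance depends on the start used. A match of letters is not a binding site, and the windows of the other 8 genes hold no match to these letters within their limits. The count tables were made on an older build (mm9), and no coordinate of theirs was used.

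The targets showed 4 different courses. Pim1 encodes a serine/threonine kinase that promotes survival, and its course was alike in both treatments. It measured 22.6, 48.0, 52.1, and 79.6 CPM in 2i and 21.5, 46.0, 47.0, and 85.1 CPM with vitC. Within each series every later library was above the 4 hr library and the 32 hr library was the highest, and at each time the counting intervals of the treatments overlapped. Pim1 rose by 1.09 ± 0.15 at 16 hr (adjusted p = 0.0011), 1.17 ± 0.15 at 24 hr (4.9e-04), and 1.90 ± 0.15 at 32 hr (1.2e-05), the last a 3.73-fold change. These calls held without any 1 library. With the Lars2 share in the model the changes were 1.00 (0.154), 1.04 (0.431), and 1.80 (0.0233). Gm26885, opposite Pim1, is not in the count tables, and its part in the result was not tested.

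Pim1 was also 1 of few genes that changed between 16 hr and 32 hr, on the same lane. It rose by 0.81 ± 0.15 (edgeR adjusted p = 0.0343), where 0.335% of all genes rose. Gbx2 fell by 0.81 over the same interval (0.0349), where 0.248% of all genes fell, and the other 7 genes did not pass. With the Lars2 share in the model both calls held (0.80 and 0.0348 for Pim1, -0.81 and 0.0339 for Gbx2). Both were lost when any 1 of the 16, 24, or 32 hr libraries was left out, with changes from 0.72 to 0.91 for Pim1 and from -0.87 to -0.74 for Gbx2.

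Gbx2, a homeobox transcription factor, peaked at 16 hr. It measured 40.7, 66.7, 46.8, and 40.2 CPM in 2i and 36.9, 64.4, 44.2, and 34.6 CPM with vitC. The 16 hr library was the highest of each series, and at 32 hr each series was back within the counting interval of its 4 hr value. The change was 0.76 ± 0.15 at 16 hr (adjusted p = 0.0062), 0.23 ± 0.15 at 24 hr (0.309), and -0.05 ± 0.15 at 32 hr (0.821). Without the vitC library at 4 hr the 16 hr change was 0.74 (0.0586). D130058E05Rik, opposite Gbx2, had between 10 and 81 counts per library beside 206 to 1268 for Gbx2, and its part in the result was not tested.

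Pim3, the kinase related to Pim1, had measured courses that differed between the treatments, with 1 library per time in each. It measured 72.6, 118.8, 84.6, and 124.3 CPM in 2i, high in both lane 7 libraries. With vitC it measured 76.0, 72.8, 68.8, and 106.1 CPM, and of these only the 32 hr library exceeded the 4 hr one. In the additive fit Pim3 rose by 0.62 ± 0.17 at 32 hr (adjusted p = 0.0194), and its changes of 0.34 ± 0.17 at 16 hr and 0.03 ± 0.17 at 24 hr did not pass (0.194 and 0.921). The 32 hr call was lost after the correction for GC content and length (0.42, 0.0804) and without the 2i library at 4 hr (0.39, 0.187) or 32 hr (0.66, 0.107) or the vitC library at 32 hr (0.59, 0.138). Without the vitC library at 16 hr, the 16 hr change was 0.60 (0.048).

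Bcl3 encodes an IκB-family co-regulator of NF-κB and has been placed downstream of STAT3 in ESCs. It measured 6.58, 15.2, 14.3, and 17.7 CPM in 2i (113 to 290 counts) and 5.15, 42.1, 37.7, and 28.4 CPM with vitC (69 to 341 counts). Both 4 hr libraries were the lowest, and the vitC libraries at 16, 24, and 32 hr stood above all others. Bcl3 rose by 2.05 ± 0.36 at 16 hr (adjusted p = 0.0034), 1.92 ± 0.36 at 24 hr (0.0034), and 1.85 ± 0.35 at 32 hr (0.0028), the largest changes of the 9 at 16 and 24 hr. Within 2i alone, single-library log2 ratios to 4 hr were 1.19 (95% counting interval 0.88 to 1.51), 1.11 (0.77 to 1.44), and 1.41 (1.09 to 1.73). With vitC they were 2.99 (2.61 to 3.37), 2.84 (2.43 to 3.24), and 2.43 (2.05 to 2.80). The additive change at 24 hr was 1.56 (0.0516) without the vitC library at 24 hr, and that at 32 hr was 1.72 (0.0584) without the 2i library at 32 hr. The size of the change also depended on which treatment's library was left out, and over all omissions it ranged from 1.36 to 2.89 at 16 hr, 1.22 to 2.76 at 24 hr, and 1.19 to 2.72 at 32 hr. With the Lars2 share in the model the changes were lower still, 1.02 at 16 hr, 0.52 at 24 hr, and 0.78 at 32 hr (adjusted p = 0.468, 0.878, and 0.583).

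To ask whether vitC altered the pathway, each vitC library was compared with the 2i library of the same time and lane. None of the 9 genes passed edgeR's quasi-likelihood test of vitC against 2i with time as a block, where 0.167% of all genes passed (25 genes, with 2062 at an unadjusted p under 0.05). DESeq2 called 1 of the 9, Bcl3, where it called 2.00% of all genes. The median log2 difference of the 9 genes was -0.04, beside -0.02 over all genes. Lifr and Socs3 were higher with vitC at all 4 time points and Gbx2 was lower at all 4, and over all genes 11.0% were higher and 10.7% lower at all 4 time points. No gene passed a test for a linear change of the vitC effect with hours (0% of all genes by edgeR and 431 at an unadjusted p under 0.05). That test left 2 residual degrees of freedom.

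**Figure D3:**
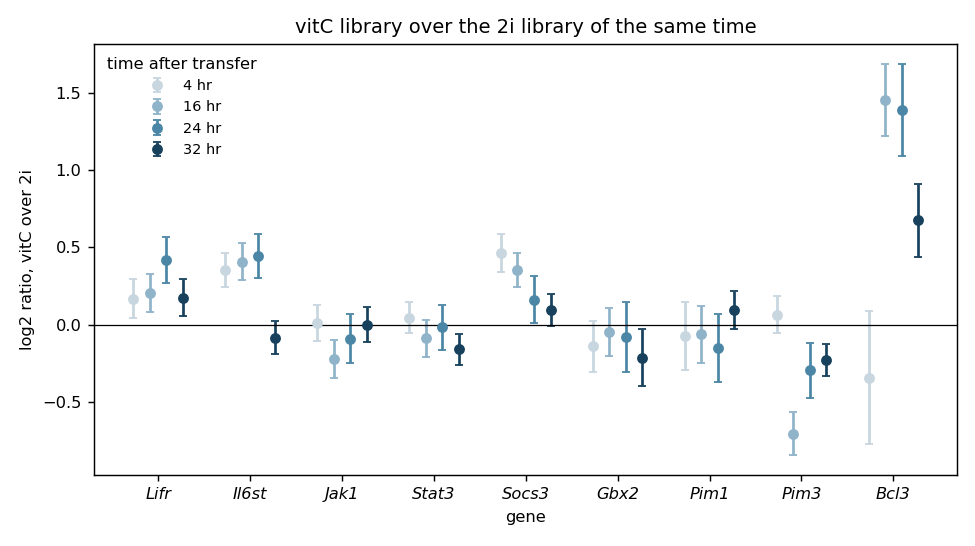
log2 ratio of the vitC library to the 2i library of the same time (vertical axis) for each gene, at 4, 16, 24, and 32 hr from light to dark; bars are 95% counting intervals and each point rests on 1 pair of libraries. Bcl3 lies at 1.46, 1.39, and 0.67 from 16 hr on, and Pim3 lies lowest at 16 hr with -0.71.

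The receptor chains and Socs3 were nominally higher with vitC. The vitC effect was 0.24 ± 0.10 for Lifr, 0.28 ± 0.11 for Il6st, and 0.27 ± 0.10 for Socs3 (adjusted p = 0.291, 0.281, and 0.254). For Lifr the single-library log2 ratios ran from 0.17 to 0.42. For Il6st they were 0.36, 0.41, and 0.44 at 4, 16, and 24 hr and -0.08 at 32 hr. For Socs3 they were 0.46, 0.35, 0.16, and 0.10 in the same order of times, so that the treatments were farthest apart in the earliest libraries. Jak1, Stat3, Gbx2, and Pim1 differed by -0.08 ± 0.10, -0.06 ± 0.09, -0.12 ± 0.11, and -0.04 ± 0.11 (adjusted p from 0.657 to 0.898).

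Pim3 was lower with vitC at 16, 24, and 32 hr, with log2 ratios of -0.71 (-0.85 to -0.57), -0.30 (-0.48 to -0.12), and -0.23 (-0.33 to -0.12), but not at 4 hr (0.06, -0.05 to 0.18). Its vitC effect in the fit was -0.29 ± 0.12 (adjusted p = 0.313).

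Bcl3 had the largest vitC difference of the 9 genes, 0.85 ± 0.24 (adjusted p = 0.134). At 4 hr the log2 ratio of vitC to 2i was -0.34 (-0.78 to 0.09), and it was 1.46 (1.22 to 1.69) at 16 hr, 1.39 (1.09 to 1.69) at 24 hr, and 0.67 (0.44 to 0.91) at 32 hr. The 3 later intervals exclude 0 for counting error, and each rests on 1 pair of libraries. Without the 4 hr pair, in which vitC was not above 2i, the effect over the later times was 1.18 (edgeR adjusted p = 0.0106). In that fit 2.60% of all genes passed, beside 0.167% with all libraries. Without the 16, 24, or 32 hr pair it was 0.63, 0.67, and 0.92 (0.444, 0.629, and 0.326), and DESeq2 on all libraries gave 0.84 (0.0373). Over the settings tried the effect ranged from 0.52, with the Lars2 share in the model, to 1.18. The Lars2 features took 7.11%, 6.37%, and 4.21% of the counts in the vitC libraries at 16, 24, and 32 hr, where Bcl3 was highest, and 0.206%, 5.92%, and 0.564% in the 2i libraries at those times. In 2i, Bcl3 was at 14.3 CPM at 24 hr and at 15.2 and 17.7 CPM at 16 and 32 hr. The part of this share in the result was not tested beyond the fit that includes it. The 10 fibroblast markers summed to 456.7, 715.4, and 458.5 CPM in those vitC libraries and to 296.8, 401.3, and 325.2 CPM in the 2i ones, and their part in the result was not tested. Of this list Col1a1 had the largest vitC effect, 0.75 ± 0.18 (adjusted p = 0.0911).

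Beyond the 9 genes, 58 other genes of the LIF-JAK-STAT pathway were listed by role, of which 55 passed the filter. Between 4 hr and 24 hr 12 of the 55 rose and 4 fell, where 11.5% of all genes rose and 8.98% fell, and their median log2 change was 0.20, beside 0.0076 over all genes. Without the vitC library at 4 hr or 24 hr 9 and 6 of the 55 passed, where 6.31% and 5.08% of all genes passed. None of the 55 passed for vitC by edgeR, and DESeq2 called 1, beside its 2.00% of all genes. With the Lars2 share in the model 0 of the 55 passed at 24 hr, where 0% of all genes passed.

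**Figure D4:**
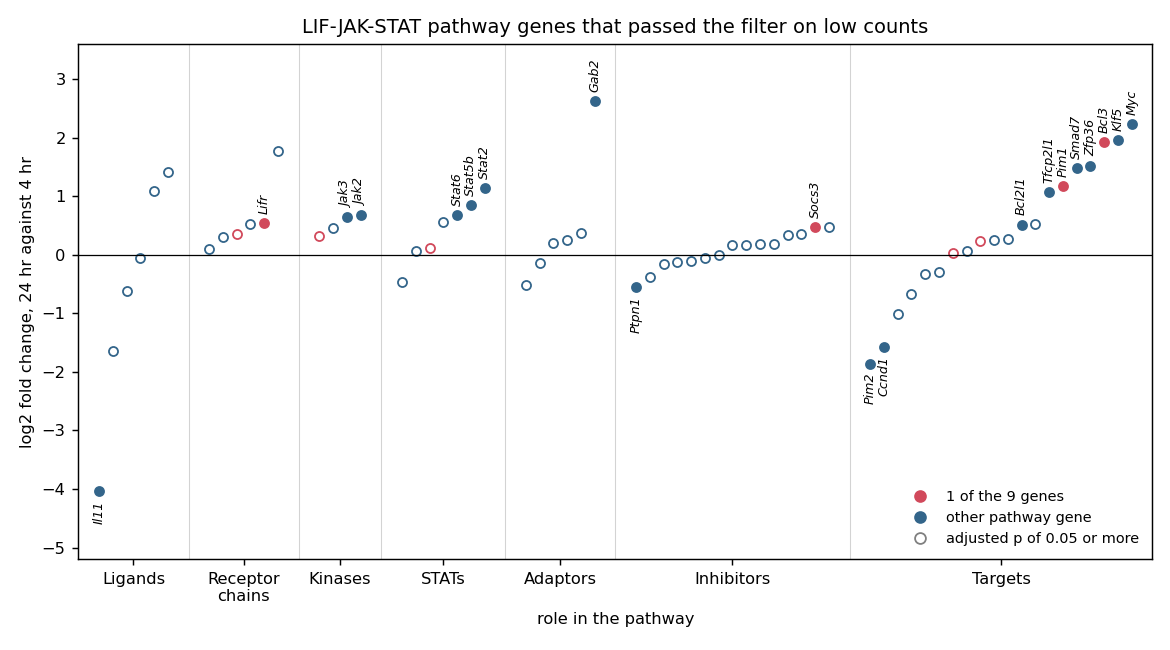
log2 fold change from 4 hr to 24 hr (vertical axis) of the 9 genes in red and of the 55 other pathway genes in blue, placed by role; filled points passed an adjusted p of 0.05 and are named. The JAK kinases and STATs lie mostly above 0, whereas the inhibitors spread around 0 and the targets run from Pim2 at -1.86 to Myc at 2.24.

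The ligands were scarce. Lif itself was transcribed at 10.1 to 13.0 CPM in all 8 libraries, with a log2 change of -0.06 ± 0.23 at 24 hr (edgeR adjusted p = 0.878). Il6 had 0 counts in every library, as had the receptor gene Il11ra2, where the floor of 3 counts stands at 0.158 to 0.643 CPM by library. Of the 6 ligands tested, Il11 fell at 24 hr, on 0 to 29 counts per library, where 8.98% of all genes fell. Osmr, the chain that pairs with gp130 for oncostatin M, stayed at 0.224 to 2.58 CPM and rose at 16 hr (2.54 ± 0.65, 0.0212) but did not pass at 24 hr (1.77 ± 0.69, 0.0866), whereas Lifr was never below 65.1 CPM.

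The kinases and STATs related to the 9 genes moved upward. Of the 3 other JAK kinases 2 rose at 24 hr, and all 3 rose at 32 hr, where 11.5% and 13.5% of all genes rose. Jak2 measured 41.8, 60.0, 70.0, and 83.4 CPM in 2i and 41.2, 60.4, 63.1, and 73.6 CPM with vitC, with both 4 hr libraries lowest. It rose by 0.68 ± 0.14 at 24 hr (edgeR adjusted p = 0.0066), and Tyk2 changed by 0.46 ± 0.19 (0.116). Of the 6 other STAT genes 3 rose at 24 hr: Stat2, an interferon-pathway STAT, by 1.14 ± 0.17 (9e-04), Stat5b by 0.85 ± 0.20 (0.012), and Stat6 by 0.68 ± 0.15 (0.0076). Of the 6 adaptors only Gab2, a docking protein, rose (2.63 ± 0.35, 5e-04), with 1.63 and 8.69 CPM at 4 hr and 24 hr in 2i and 1.27 and 9.65 CPM with vitC. Of the 14 inhibitors other than Socs3 only the phosphatase gene Ptpn1 passed at 24 hr, where 20.5% of all genes passed, and it fell (-0.55 ± 0.16, 0.0271). At 32 hr 2 inhibitors, Pias4 (0.52 ± 0.16, 0.0295) and Ptpn6 (0.71 ± 0.18, 0.0138), rose and 1, Ptpn1, fell. These counts of 14 stand beside 13.5% of all genes that rose and 11.8% that fell. Pias4 and Ptpn6 were named after their values were seen.

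Among the 16 other STAT3 targets 6 rose and 2 fell at 24 hr, where 11.5% of all genes rose and 8.98% fell. Tfcp2l1, a transcription factor of the naive ESC network, measured 334.9, 590.2, 660.9, and 604.7 CPM in 2i and 398.2, 764.4, 894.1, and 587.1 CPM with vitC, and rose by 1.08 ± 0.15 at 24 hr (edgeR adjusted p = 7e-04). The 4 hr libraries were the lowest of both series, as for Lifr and Pim1. Klf5, another factor of that network, measured 6.63, 13.9, 14.3, and 21.8 CPM in 2i and 7.61, 30.3, 50.4, and 21.8 CPM with vitC and rose by 1.97 ± 0.37 (0.0034). Its values with vitC at 16 and 24 hr stood above those in 2i, as they did for Bcl3, and its vitC effect of 0.79 ± 0.25 did not pass (0.178). Klf4 changed by 0.53 ± 0.20 (0.0706), and Pramel7 stayed at 0.736 to 2.24 CPM.

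Myc rose by 2.24 ± 0.47 at 24 hr (edgeR adjusted p = 0.0063) from 1.05 and 2.62 CPM at 4 hr, and Zfp36 and Smad7, which encode an mRNA-decay factor and an inhibitor of TGF-β signaling, rose by 1.52 ± 0.36 and 1.47 ± 0.26 (0.0115 and 0.0024). In the opposite direction, Pim2, the third PIM kinase, fell, with 69.7 and 17.9 CPM at 4 hr and 24 hr in 2i and 68.6 and 20.4 CPM with vitC (-1.86 ± 0.24, 4e-04). Pim1 rose, Pim2 fell, and Pim3 did not pass over these hours, so that the PIM family did not move together. Ccnd1, which encodes cyclin D1, fell from 275.1 and 298.5 CPM to 117.9 and 81.1 CPM (-1.57 ± 0.19, 3e-04).

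As a description of pattern, the protein-coding genes with a mean of at least 5 CPM (10620 genes) were ranked by Pearson's r of log2 CPM with Lifr, Stat3, and Socs3 over the 8 libraries. Those most like Lifr were Fry, B4galt6, and Nr5a2 (r = 0.993, 0.992, and 0.991), and those most like Stat3 were Lrp3, Atf4, and Cnksr3 (0.981, 0.980, and 0.976). Pip4k2a, Trappc12, and Elmod3 were most like Socs3 (0.984, 0.984, and 0.978). Among the 9 genes, Lifr and Bcl3 were most alike (0.93), followed by Lifr and Il6st (0.86), and Stat3 and Pim1 (0.82). Gbx2 and Stat3 had the lowest r (-0.08), which over 8 libraries does not show that they are unrelated. These libraries share times, lanes, and scaling, and the values for Lifr, Stat3, and Socs3 are the highest of 10620.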

How the data were processed

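The authors deposited whole-number counts of reads per Ensembl gene for each library, without normalization. Total RNA had been depleted of ribosomal RNA, made into TruSeq libraries, and sequenced as 50 bp single-end reads. The submitters' processing notes name GSNAP, HTSeq, and NCBIM37/mm9, and the annotation release and the strand setting of the counting are not given in the sources used here. Treatments and times were taken from the labels, and lanes from the deposited file names. Inhibitor concentrations differ between the labels and the paper and are not given. Symbols, exon lengths, and overlaps came from GENCODE M21, which held 32604 of the 37263 identifiers.

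The 14931 genes that reached 1 CPM in 2 or more libraries were tested with edgeR 4.0.16 in R 4.3.3 (TMM, quasi-likelihood, Benjamini-Hochberg, threshold 0.05), with DESeq2 1.42.0 as an alternative. The additive model left 3 residual degrees of freedom. Single-library ratios used a prior count of 2. With 1 library per combination, p-values measure the spread between these libraries only. Counting intervals assume independent reads. The smallest detectable level was set at 3 counts. Scripts were tested on simulated data.

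The 9 genes and all lists were chosen with earlier results of these data known. All 9 are named, as are, of the pathway list at 24 hr, up to 10 genes past the threshold in each direction by size, a fixed set named whether it passed or not (Lif, Osmr, Jak2, Tyk2, Stat5b, Klf4, Tfcp2l1, and Pramel7, with 1 other not reported here), and the 3 genes most like Lifr, Stat3, and Socs3. Il6, Il11ra2, and the markers were named from their lists, the markers given with tests after their values were seen.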

Additional observations from a re-analysis of the deposited data

Results flagged for a closer look

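Between 16 hr and 32 hr, on the same lane, Il6st moved in opposite directions in the treatments. From 16 hr to 32 hr the log2 ratio was 0.28 for 2i (95% counting interval 0.18 to 0.38) and -0.21 with vitC (-0.34 to -0.09), each from 1 pair of libraries. The difference between these intervals was not tested on its own, and the linear change of the vitC effect with hours was -0.01 log2 per hr for Il6st, with an unadjusted edgeR p of 0.278.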

How the results depend on the processing

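The 45 log2 changes of the 9 genes were recomputed under scaling by the median of ratios, by library totals, or without the Lars2 features, DESeq2, other filters, thinning to the smallest library, a correction for GC content and length, models that lacked the treatment term or the block on time, and omitted libraries or times. In these settings 723 recomputed values kept their direction and side of the threshold, 51 lost a call, 12 gained one, and 15 changed sign. Most of the 45 were not calls in the main fit, so that most kept values had no call to lose. Its calls among the 9 genes numbered 6, 4, and 4 at 16, 24, and 32 hr against 4 hr. Added to these were 2 calls for 32 hr against 16 hr and 0 for vitC. With the Lars2 share as a covariate 32 kept both and 13 lost a call. The calls left in that fit were 0, 0, 1, 2, and 0 in the same order of comparisons. The number of the 9 genes that passed fell without the treatment term from 4 to 2 at 24 hr, from 2 to 0 for 32 hr against 16 hr, and from 6 to 2 for any change over time. Over all genes 12.7%, 0.0737%, and 10.4% passed in these fits, beside 20.5%, 0.583%, and 20.8% with the term. For 32 hr against 16 hr the number of the 9 was 1 with library totals alone and 0 after thinning, where 0.422% and 0.124% of all genes passed. For vitC it rose from 0 to 1 with DESeq2, without a filter, or without the 4 hr pair, each time for Bcl3, and for the other pathway genes it rose from 0 to 1, 4, and 3 in these settings, in which 2.00%, 2.97%, and 2.60% of all genes passed, beside 0.167%. With the Lars2 share in the model, chosen after seeing the data, 0 of the 9 passed at 16 hr, 0 at 24 hr, 1 (Pim1) at 32 hr, and 1 over any time. Over all genes 0.489%, 0%, 1.06%, and 0.938% passed. Of the other pathway genes 0 passed at 24 hr in that fit.

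When each library was left out in turn, the number passing ranged from 3 to 6 at 16 hr, 1 to 4 at 24 hr, 1 to 6 at 32 hr, 0 to 2 for 32 hr against 16 hr, 3 to 6 for any change over time, and 0 to 1 for vitC. Among the other pathway genes it ranged from 6 to 17 at 24 hr and from 0 to 3 for vitC. The 24 hr count was lowest without the vitC library at 24 hr (1 of the 9 and 6 of the others), and the 32 hr count without the 2i library at 32 hr.

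Directions that changed all belonged to values that did not pass. Stat3 changed by -0.062 at 16 hr and -0.077 at 24 hr after the GC and length correction. Over left-out libraries Pim3 ranged from -0.20 to 0.26 at 24 hr, Gbx2 from -0.12 to 0.014 at 32 hr, and for 32 hr against 16 hr Il6st from -0.21 to 0.28, Socs3 from -0.077 to 0.16, and Bcl3 from -0.59 to 0.25. For 32 hr against 16 hr, thinning gave -0.054 for Il6st, 0.055 for Jak1, and -0.018 for Socs3, and the GC and length correction gave -0.12 for Socs3. The vitC effect on Pim1 was 0.024 after thinning and 0.0007 after the GC and length correction. The causes were not tested. Over all genes, 42 of 54 calls for vitC were rises with library totals alone, beside 16 of 25. The treatments share a time and no replicate number, and the model for vitC already paired each vitC library with the 2i library of its time. At 4753528 counts the vitC library at 24 hr gave the widest intervals.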
